A study of Mus musculus with 12 samples.

Results

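The genes described here encode 10 enzymes that make ceramide or pass it into and out of sphingomyelin: Sptlc1, Sptlc2, Degs1, Cers2, Cers4, Cers5, Cers6, Sgms1, Sgms2 and Smpd1. They were taken by name, 10 of the 55357 genes in the count table, and all 10 passed the filter on low counts. All are protein-coding: Degs1 lies on chromosome 1, Cers6 on 2, Cers2 and Sgms2 on 3, Smpd1 on 7, Cers4 on 8, Sptlc2 on 12, Sptlc1 on 13, Cers5 on 15 and Sgms1 on 19 (GRCm38). RNA came from whole liver of male C57BL/6J mice that had eaten chow or CDAHFD (a high-fat diet that lacks choline, supplies its protein as defined L-amino acids and brings on steatohepatitis) for 6 weeks and were killed at 13 weeks of age. KO mice were PPARα fl/fl AlbuminCre Tg/+, so that PPARα (the nuclear receptor that drives hepatic fatty acid oxidation, encoded by Ppara) was deleted in hepatocytes through the albumin promoter, and WT mice were PPARα fl/fl AlbuminCre +/+. The controls thus carried the floxed allele too, and cells other than hepatocytes kept Ppara in the KO mice. There were 4 chow-fed WT, 3 CDAHFD-fed WT, 2 chow-fed KO and 3 CDAHFD-fed KO libraries, each taken as 1 mouse. The study's methods give 3 mice for each group, and this difference was not resolved here.

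Ceramide is made at the endoplasmic reticulum. Serine palmitoyltransferase joins serine and palmitoyl-CoA, the product is reduced, ceramide synthases attach a fatty acyl chain, and dihydroceramide desaturase inserts the double bond that turns dihydroceramide into ceramide. Sphingomyelin synthases then move the phosphocholine head group of phosphatidylcholine onto ceramide, and sphingomyelinases take it off again. The ceramide synthases differ in the acyl chain they prefer: CERS2 makes very-long-chain ceramides and is the main form in hepatocytes, while CERS5 and CERS6 make palmitoyl (long-chain) ceramides.

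The library totals ran from 29906785 to 43551003 counts, and the TMM scaling factors were 0.729 to 0.827 in chow-fed WT but 1.03 to 1.26 in the other 3 groups. Levels are given as TMM-scaled CPM (counts scaled to a common library size), and a gene was called at an adjusted p under 0.05 in edgeR's quasi-likelihood test (Benjamini-Hochberg over 17358 genes). Ppara was at 96.2 to 238 CPM in chow-fed WT, 59.5 to 75.5 in CDAHFD-fed WT, 14.4 and 38.7 in chow-fed KO and 20.7 to 51.9 in CDAHFD-fed KO. All 5 KO libraries lay below all 7 WT libraries, as their labels state. With library size as the only scaling, the log2 fold change of the median gene against chow-fed WT was 0.40 in chow-fed KO, 0.51 in CDAHFD-fed WT and 0.57 in CDAHFD-fed KO, where TMM gave 0.00, -0.05 and -0.04. The 3 comparisons with chow-fed WT share those 4 control libraries.

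Whole liver was sequenced, and fewer cells of a type and less RNA per cell cannot be told apart. The summed CPM of 8 macrophage and Kupffer cell markers was 312 to 576 in chow-fed WT, 2043 to 2835 in CDAHFD-fed WT, 1177 to 1382 in chow-fed KO and 2080 to 2295 in CDAHFD-fed KO, with 7 of 8 called higher in each group. For 7 stellate cell and fibroblast markers the sum rose from 59.7 to 173 in chow-fed WT to 1098 to 1165, 845 to 1016 and 1216 to 1820 in the same order, with 4, 4 and 5 of 7 called higher. All 5 cholangiocyte markers were higher in both CDAHFD groups and 4 of 5 in chow-fed KO. The 7 hepatocyte markers summed to 109498 to 120818 CPM in chow-fed WT, 63418 to 73737 in CDAHFD-fed WT, 93254 to 104102 in chow-fed KO and 57937 to 74326 in CDAHFD-fed KO, with 6, 5 and 6 of 7 called lower in CDAHFD-fed WT, chow-fed KO and CDAHFD-fed KO. Lymphocyte markers were higher for 2, 3 and 3 of 6, both tested neutrophil markers were higher in all 3 groups, and of 6 endothelial markers 3 were lower in each CDAHFD group and 1 was higher in chow-fed KO. Of all genes tested, 51.1%, 39.0% and 52.4% were called in CDAHFD-fed WT, chow-fed KO and CDAHFD-fed KO. Counts near or below these shares, as for the lymphocyte and endothelial markers, do not stand out from genes in general. Ly6g was the only listed marker with no count in any chow-fed WT library. The part of these markers in the results on the 10 enzymes was not tested.

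The promoters of the genes that moved most are shown with that of Cers2, the abundant synthase. The sequences are RefSeq's (GRCm38.p6), from 250 bases before to 50 after the annotated start, 5′ to 3′ on the gene's strand. Capitals mark, on either strand, the GC box GGGCGG, the CCAAT box, the nuclear receptor core motif AGGTCA and the E-box CACGTG, the binding motif of CLOCK and its partner.
Sptlc2 (chr12:87388306-87388605, minus strand): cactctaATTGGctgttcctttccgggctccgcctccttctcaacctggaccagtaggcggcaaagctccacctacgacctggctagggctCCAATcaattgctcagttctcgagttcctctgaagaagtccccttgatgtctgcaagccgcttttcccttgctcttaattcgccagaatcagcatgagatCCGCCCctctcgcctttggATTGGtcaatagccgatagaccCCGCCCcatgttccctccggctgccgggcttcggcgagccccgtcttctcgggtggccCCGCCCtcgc
Cers5 (chr15:99772466-99772765, minus strand): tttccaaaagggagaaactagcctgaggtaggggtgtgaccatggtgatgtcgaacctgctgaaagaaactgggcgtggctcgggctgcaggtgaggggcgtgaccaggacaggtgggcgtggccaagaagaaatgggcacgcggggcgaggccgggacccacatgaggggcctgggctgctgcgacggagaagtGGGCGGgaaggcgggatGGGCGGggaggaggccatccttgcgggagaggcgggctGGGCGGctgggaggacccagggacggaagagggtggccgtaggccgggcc
Cers6 (chr2:68861191-68861490, plus strand): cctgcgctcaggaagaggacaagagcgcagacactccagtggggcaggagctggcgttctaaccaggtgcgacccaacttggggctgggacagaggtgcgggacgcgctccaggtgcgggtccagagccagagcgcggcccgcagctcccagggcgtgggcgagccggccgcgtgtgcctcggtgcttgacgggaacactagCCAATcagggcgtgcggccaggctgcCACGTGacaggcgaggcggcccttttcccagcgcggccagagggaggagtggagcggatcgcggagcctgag
Cers2 (chr3:95314940-95315239, plus strand): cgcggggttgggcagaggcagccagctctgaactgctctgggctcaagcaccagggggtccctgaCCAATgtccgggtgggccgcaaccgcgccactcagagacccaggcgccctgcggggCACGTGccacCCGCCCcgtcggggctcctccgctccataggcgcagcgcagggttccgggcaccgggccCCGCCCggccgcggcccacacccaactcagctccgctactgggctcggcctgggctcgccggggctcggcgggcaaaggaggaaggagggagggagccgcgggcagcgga
The Sptlc2 window held 3 GC boxes and 3 CCAAT boxes. Cers5 had 3 GC boxes and no CCAAT box, whereas Cers6 had no GC box and 1 CCAAT box. The table gave 19 promoter entries for the 10 genes. GC boxes lay in 11 of the 19 (8 genes) against 35.9% of the 32544 distinct mouse promoters, CCAAT boxes in 8 (7 genes) against 37.4%, E-boxes in 4 (Cers2, Cers6, Degs1 and Sgms2) against 7.17%, and core motifs in 6 (Cers2, Sgms1, Sgms2 and Smpd1) against 16.2%. The DR1 element bound by PPARα with RXR was searched as 2 copies of the core motif 1 base apart, so that any match also holds core motifs. It was in none of the 19 windows and in 0.0399% of all promoters, which says only that these letters are not there. Several entries belong to the same gene and are not independent.

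Against chow-fed WT, 6 of the 10 enzymes were called in chow-fed KO (5 higher and 1 lower), where 39.0% of all genes tested were called. CDAHFD-fed WT had 6 called (4 higher and 2 lower) at a background of 51.1%, and CDAHFD-fed KO had 7 (4 higher and 3 lower) at a background of 52.4%. The shares of the 10 enzymes called were thus 60%, 60% and 70%. Their median log2 fold change was 0.51 in chow-fed KO, 0.11 in CDAHFD-fed WT and 0.26 in CDAHFD-fed KO. Sptlc2, Cers5 and Cers6 were higher in all 3 comparisons. A setting chosen after the data were seen used only the 8 libraries with a clock score above 0 (explained beside Sgms2). It left chow-fed KO with replicate 1 only, and no count of enzymes called is given for it. It does enter the alternative settings of single enzymes below. Leaving out either chow-fed KO library also leaves 1, and those settings enter the counts and calls below.

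**Figure D1:**
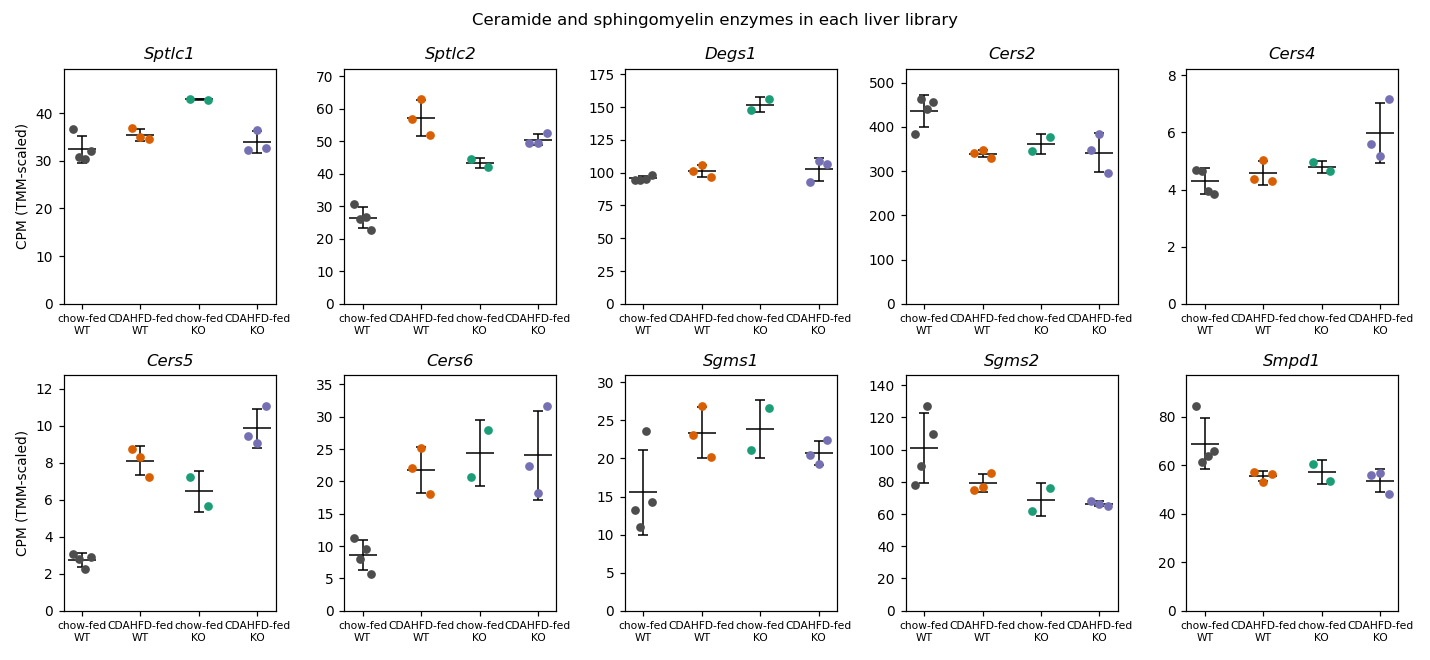
TMM-scaled CPM (vertical axis, from 0) of each enzyme in each library, grouped on the horizontal axis by genotype and diet. Points are libraries, bars the mean and SD. Sptlc2, Cers5 and Cers6 sit lower in the 4 chow-fed WT libraries than in any other library, and Degs1 stands higher in the 2 chow-fed KO libraries than in any other.

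Serine palmitoyltransferase is the committed and rate-limiting step, and SPTLC1 and SPTLC2 form its core. Sptlc2 was at 30.6, 26.0, 26.9 and 22.8 CPM in chow-fed WT, 57.0, 63.0 and 51.9 in CDAHFD-fed WT, 44.5 and 42.2 in chow-fed KO and 49.5, 49.5 and 52.6 in CDAHFD-fed KO. The 4 chow-fed WT libraries were the lowest, and chow-fed KO lay between them and both CDAHFD groups. Sptlc2 was 2.16-fold higher in CDAHFD-fed WT (log2 1.11, SE 0.11, adjusted p = 3.5e-06), 1.63-fold higher in chow-fed KO (0.71, SE 0.12, adjusted p = 0.00056) and 1.90-fold higher in CDAHFD-fed KO (0.93, SE 0.11, adjusted p = 1.4e-05).

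Sptlc1 moved far less. Its CPM was 36.6, 30.8, 30.3 and 32.0 in chow-fed WT, 36.8, 35.0 and 34.5 in CDAHFD-fed WT, 42.9 and 42.8 in chow-fed KO and 32.4, 36.6 and 32.7 in CDAHFD-fed KO. Chow-fed KO lay above every other library, while the CDAHFD groups overlapped chow-fed WT. Sptlc1 rose 1.32-fold in chow-fed KO (log2 0.40, SE 0.11, adjusted p = 0.0089), and the call was lost in 2 of 20 alternative settings. With only the 8 libraries of a clock score above 0, which hold replicate 1 alone of chow-fed KO, the log2 value was 0.35. Over all 12 libraries, its log2 fold change was 0.13 in CDAHFD-fed WT and 0.06 in CDAHFD-fed KO, neither called. The 95% intervals were -0.06 to 0.31 and -0.12 to 0.25.

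Degs1, the dihydroceramide desaturase of the last step, differed in chow-fed KO. Its CPM was 94.61, 94.75, 95.0009 and 98.47 in chow-fed WT, 101, 106 and 96.5 in CDAHFD-fed WT, 148 and 156 in chow-fed KO and 92.7, 109 and 107 in CDAHFD-fed KO. Both chow-fed KO libraries exceeded the other 10, which overlapped among groups. Degs1 was 1.59-fold higher than in chow-fed WT (log2 0.67, SE 0.10, adjusted p = 0.00018), and it was called in each of the 20 alternative settings. In CDAHFD-fed WT the log2 fold change was 0.08 (95% interval -0.09 to 0.25) and in CDAHFD-fed KO 0.10 (-0.07 to 0.28), neither called.

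Among the ceramide synthases, Cers2 was lower on CDAHFD while Cers5 and Cers6 were higher in all 3 comparisons. Cers5 had 3.07, 2.80, 2.23 and 2.89 CPM in chow-fed WT, 8.77, 8.33 and 7.23 in CDAHFD-fed WT, 7.23 and 5.67 in chow-fed KO and 9.45, 9.09 and 11.1 in CDAHFD-fed KO. Every library outside chow-fed WT was above every chow-fed WT library. The fold change was 2.35 in chow-fed KO (log2 1.23, SE 0.18, adjusted p = 0.00014), 2.96 in CDAHFD-fed WT (1.56, SE 0.16, adjusted p = 4.6e-06) and 3.60 in CDAHFD-fed KO (1.85, SE 0.16, adjusted p = 1.0e-06), the largest of the 10 enzymes in both CDAHFD groups.

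Cers6 had 11.2, 7.93, 9.47 and 5.69 CPM in chow-fed WT, 22.1, 25.1 and 18.1 in CDAHFD-fed WT, 20.7 and 27.9 in chow-fed KO and 22.4, 18.2 and 31.6 in CDAHFD-fed KO. The groups outside chow-fed WT overlapped one another, and none reached down to chow-fed WT. Cers6 rose 2.83-fold in chow-fed KO (log2 1.502, SE 0.25, adjusted p = 0.00051), 2.53-fold in CDAHFD-fed WT (1.34, SE 0.23, adjusted p = 0.00039) and 2.80-fold in CDAHFD-fed KO (1.49, SE 0.23, adjusted p = 0.00016). The calls of Sptlc2, Cers5 and Cers6 against chow-fed WT held in each of the 20 settings.

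Cers2 had 383, 462, 441 and 456 CPM in chow-fed WT, 341, 347 and 330 in CDAHFD-fed WT, 345 and 378 in chow-fed KO and 347, 384 and 295 in CDAHFD-fed KO. CDAHFD-fed WT and chow-fed KO lay below all chow-fed WT libraries, and 1 CDAHFD-fed KO library reached into their range. The level was 0.779 of chow-fed WT in CDAHFD-fed WT (log2 -0.36, SE 0.11, adjusted p = 0.017) and 0.785 in CDAHFD-fed KO (-0.35, SE 0.11, adjusted p = 0.020). The CDAHFD-fed WT call was lost without CDAHFD-fed WT replicate 1 or 3 (adjusted p = 0.053 and 0.063), and that of CDAHFD-fed KO without CDAHFD-fed KO replicate 1 or 3 or chow-fed WT replicate 2 (0.051, 0.085 and 0.050). Over the 20 settings, the first of these calls was lost in 3 and the second in 7. In chow-fed KO the log2 fold change was -0.27 with an adjusted p of 0.12, and 0.046 without chow-fed WT replicate 1. With library size only, the 3 values turned to 0.14 in chow-fed KO, 0.20 in CDAHFD-fed WT and 0.26 in CDAHFD-fed KO, which relative to the median of all genes were -0.27, -0.31 and -0.31. Cers2 shares 75 exonic bases (2.04% of its length) with Setdb1 on the opposite strand, whose counts came to 8.81% of those of Cers2 in libraries without strand information.

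Cers4, which makes ceramides of intermediate to long acyl chains, was scarce. It had 4.70, 4.66, 3.93 and 3.85 CPM in chow-fed WT, 4.36, 5.05 and 4.30 in CDAHFD-fed WT, 4.95 and 4.63 in chow-fed KO and 5.60, 5.16 and 7.16 in CDAHFD-fed KO. All 3 CDAHFD-fed KO libraries exceeded the other 9. The call was made only in CDAHFD-fed KO, at 1.39-fold (log2 0.48, SE 0.16, adjusted p = 0.023), and without CDAHFD-fed KO replicate 3 it was lost (log2 0.33, adjusted p = 0.12), as it was without chow-fed WT replicate 4 (0.46, adjusted p = 0.051). CDAHFD-fed KO replicate 3 had a clock score of -3.12, the lowest of the 12.

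**Figure D2:**
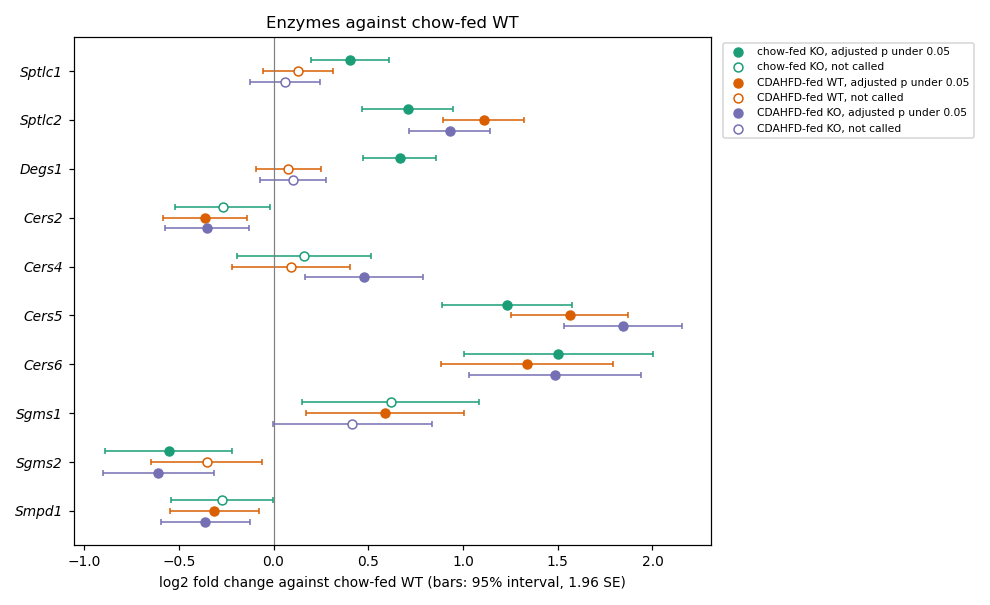
Log2 fold change against chow-fed WT (horizontal axis) of the 10 enzymes (vertical axis) in chow-fed KO, CDAHFD-fed WT and CDAHFD-fed KO, with 95% intervals. Filled points passed an adjusted p of 0.05. Cers5, Cers6 and Sptlc2 are filled on the right in all 3 comparisons, Sgms2 lies to the left of 0, and Degs1 is filled only in chow-fed KO.

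Per length, Cers2 made up most of the ceramide synthase RNA. CPM was divided by the exonic length of each gene and summed over Cers2, Cers4, Cers5 and Cers6, and Cers2 held 98.2% ± 0.412 (SD, n = 4) of the sum in chow-fed WT, 94.8% ± 0.480 (n = 3) in CDAHFD-fed WT, 95.2% ± 0.0684 (n = 2) in chow-fed KO and 93.8% ± 1.92 (n = 3) in CDAHFD-fed KO. Its share was 97.6 to 98.6% in chow-fed WT and 91.7 to 95.4% in the other 8 libraries, with no overlap. Cers5 went from 0.649% of the sum in chow-fed WT to 2.35%, 1.78% and 2.86% in CDAHFD-fed WT, chow-fed KO and CDAHFD-fed KO, and Cers6 from 0.816% to 2.51%, 2.64% and 2.82%. With the longest principal transcript as length, the Cers2 share was 98.5%, 95.4%, 95.9% and 94.5% in chow-fed WT, CDAHFD-fed WT, chow-fed KO and CDAHFD-fed KO. Shares of RNA are not shares of enzyme or of ceramide.

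**Figure D3:**
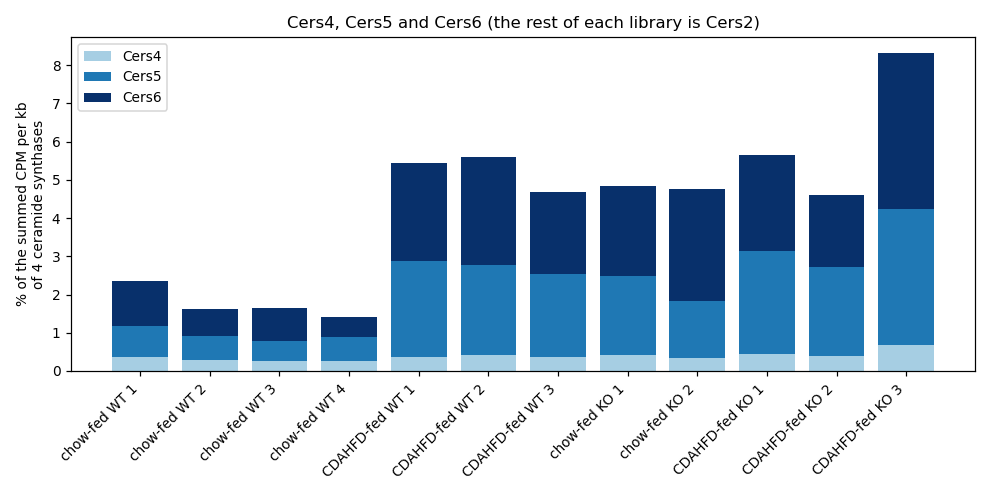
Percent of the summed CPM per kb of 4 ceramide synthases (vertical axis, from 0) held by Cers4, Cers5 and Cers6 in each of the 12 libraries (horizontal axis), stacked. The stacks of chow-fed WT are the shortest of the 12, and that of CDAHFD-fed KO replicate 3 is the tallest, where Cers2 has its lowest share, 91.7%.

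The log2 ratio of 2 enzymes within a library does not depend on how libraries are scaled. The ratio of Cers5 to Cers2 was -7.32 ± 0.272 (SD) in chow-fed WT, -5.39 ± 0.117 in CDAHFD-fed WT, -5.82 ± 0.340 in chow-fed KO and -5.11 ± 0.341 in CDAHFD-fed KO. Averaged over genotypes, CDAHFD exceeded chow by 1.31 (two-sided exact permutation test within genotype, p = 0.00286, the smallest it can give, and 0.0143 adjusted over the 10 tests of ratios). KO exceeded WT by 0.89 averaged over diets (exact permutation test within diet, p = 0.01, adjusted p = 0.0333), and this call was lost without CDAHFD-fed WT replicate 3, either chow-fed KO library, or CDAHFD-fed KO replicate 1 or 3 (differences of 0.77 to 1.009, adjusted p of 0.0667 to 0.1). Without any 1 of the 4 chow-fed WT libraries, both Cers5 to Cers2 differences had an adjusted permutation p of 0.05, which is not under the threshold. Cers6 to Cers2 was -5.71 ± 0.520 in chow-fed WT and -3.98, -3.91 and -3.86 in CDAHFD-fed WT, chow-fed KO and CDAHFD-fed KO. CDAHFD minus chow was 1.73 in WT and 0.05 in KO, and averaged over genotypes the difference of 0.89 did not pass (exact permutation p = 0.0371, adjusted p = 0.0619). The genotype difference averaged over diets, 0.96, also missed (exact permutation p = 0.0367, adjusted p = 0.0619), with 1.80 on chow and 0.12 on CDAHFD. Without CDAHFD-fed KO replicate 2, both passed.

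Sptlc2 to Sptlc1 separated the diets in both genotypes. The log2 ratio was -0.29 ± 0.137 in chow-fed WT, 0.69 ± 0.138 in CDAHFD-fed WT, 0.02 ± 0.0526 in chow-fed KO and 0.58 ± 0.128 in CDAHFD-fed KO. CDAHFD exceeded chow by 0.98 in WT and 0.56 in KO, an average of 0.77 (exact permutation p = 0.00286, the smallest possible, adjusted p = 0.0143). Without any 1 of the 4 chow-fed WT libraries the adjusted permutation p was 0.05, which is not under the threshold. The genotype difference was 0.10 on average (exact permutation p = 0.353, adjusted p = 0.442).

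**Figure D4:**
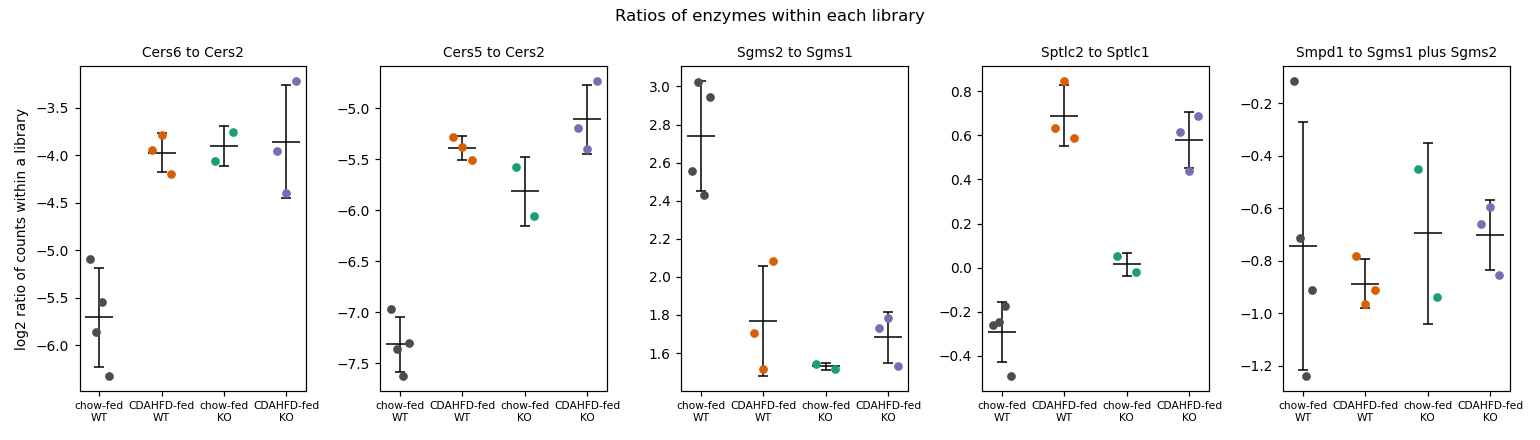
Log2 ratio of counts within a library (vertical axis) for 5 pairs of enzymes or enzyme sums, by group (horizontal axis). Points are libraries, bars the mean and SD. Chow-fed WT does not overlap the other groups in the ratios of Cers6 to Cers2, Cers5 to Cers2 and Sgms2 to Sgms1, and Sptlc2 to Sptlc1 is higher in both CDAHFD groups than in either chow group.

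The sphingomyelin synthases had fold changes of opposite sign. SGMS1 works in the Golgi and SGMS2 mostly at the plasma membrane. Sgms2 had 78.2, 89.6, 127 and 110 CPM in chow-fed WT, 75.2, 76.9 and 85.5 in CDAHFD-fed WT, 61.6 and 76.1 in chow-fed KO and 67.9, 66.4 and 64.8 in CDAHFD-fed KO. Both KO groups lay below all chow-fed WT libraries, while CDAHFD-fed WT overlapped chow-fed WT. Sgms2 was at 0.681 of chow-fed WT in chow-fed KO (log2 -0.55, SE 0.17, adjusted p = 0.022) and at 0.656 in CDAHFD-fed KO (-0.61, SE 0.15, adjusted p = 0.0044). In CDAHFD-fed WT the log2 fold change was -0.35 (adjusted p = 0.065). The chow-fed KO call was lost in 4 of the 20 settings. Among them were only the 2 groups compared (adjusted p = 0.082), library size only (0.47) and leaving out chow-fed KO replicate 1. With library size only, the log2 fold change was 0.21 in CDAHFD-fed WT and 0.01 in CDAHFD-fed KO, or -0.30 and -0.56 relative to the median of all genes.

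Chow-fed WT was split in Sgms2, with replicates 3 and 4 the highest. A clock score was computed from 12 core clock genes, positive where Arntl, Npas2, Clock and Cry1 were high against Dbp, Tef, Nr1d1, Nr1d2, Per1, Per2, Per3 and Ciart. It was 1.998, 1.82, -1.80 and -2.18 in chow-fed WT, 0.20, 0.92 and 0.91 in CDAHFD-fed WT, 1.44 and -1.10 in chow-fed KO and 0.46, 0.44 and -3.12 in CDAHFD-fed KO. The 8 libraries with a score above 0 held only replicate 1 of chow-fed KO, and replicates 1 and 2 of chow-fed WT and CDAHFD-fed KO. In these 8 the log2 fold change of Sgms2 was -0.44 in chow-fed KO, -0.08 in CDAHFD-fed WT and -0.32 in CDAHFD-fed KO. The part of collection time was not tested.

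Sgms1 had 13.3, 11.02, 23.6 and 14.3 CPM in chow-fed WT, 23.1, 26.9 and 20.2 in CDAHFD-fed WT, 21.1 and 26.6 in chow-fed KO and 20.5, 19.3 and 22.4 in CDAHFD-fed KO. Chow-fed WT replicate 3 lay within the range of the other groups, and the other 3 chow-fed WT libraries lay below all of them. Sgms1 was 1.504-fold higher in CDAHFD-fed WT (log2 0.59, SE 0.21, adjusted p = 0.035). Its log2 fold change was 0.62 in chow-fed KO (adjusted p = 0.057) and 0.42 in CDAHFD-fed KO (adjusted p = 0.12), neither called. Without chow-fed WT replicate 3 it was 0.90 in chow-fed KO (adjusted p = 0.0013) and 0.72 in CDAHFD-fed KO (adjusted p = 0.0020), both called. The CDAHFD-fed WT call was lost without any of chow-fed WT replicates 1, 2 and 4 or CDAHFD-fed WT replicates 1 and 2 (adjusted p of 0.067 to 0.14). The log2 ratio of Sgms2 to Sgms1 was 2.74 ± 0.290 in chow-fed WT and 1.77, 1.53 and 1.68 in CDAHFD-fed WT, chow-fed KO and CDAHFD-fed KO, with no overlap between chow-fed WT and the others. Neither the diet difference averaged over genotypes (-0.41, exact permutation p = 0.0743, adjusted p = 0.106) nor the genotype difference averaged over diets (-0.65, exact permutation p = 0.03, adjusted p = 0.0619) passed.

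Smpd1 encodes acid sphingomyelinase, the lysosomal enzyme lost in Niemann-Pick disease types A and B. It had 84.4, 61.4, 63.8 and 65.9 CPM in chow-fed WT, 57.1, 53.2 and 56.2 in CDAHFD-fed WT, 60.5 and 53.6 in chow-fed KO and 56.0, 56.7 and 48.3 in CDAHFD-fed KO. All chow-fed WT libraries lay above the other 8, and chow-fed WT replicate 1 stood well above the rest of its group. Smpd1 was at 0.806 of chow-fed WT in CDAHFD-fed WT (log2 -0.31, SE 0.12, adjusted p = 0.045) and at 0.779 in CDAHFD-fed KO (-0.36, SE 0.12, adjusted p = 0.023), against -0.27 in chow-fed KO (adjusted p = 0.14). The CDAHFD-fed WT call was lost in 14 of the 20 settings and turned to 0.24 in another, library size only. Without chow-fed WT replicate 1 the log2 fold change was -0.18 in CDAHFD-fed WT (adjusted p = 0.13) and -0.22 in CDAHFD-fed KO (adjusted p = 0.069), and without CDAHFD-fed KO replicate 3 the latter was -0.29 (adjusted p = 0.095). With library size only it was 0.13 in chow-fed KO and 0.24 in CDAHFD-fed KO, and relative to the median of all genes it was -0.28, -0.27 and -0.33 in chow-fed KO, CDAHFD-fed WT and CDAHFD-fed KO. The ratio of Smpd1 to the sum of Sgms1 and Sgms2 did not differ beyond the spread by diet (-0.07, exact permutation p = 0.683, adjusted p = 0.683) or by genotype (0.12, exact permutation p = 0.58, adjusted p = 0.644).

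On CDAHFD, KO and WT were not told apart in any of the 10 enzymes. None was called in CDAHFD-fed KO against CDAHFD-fed WT by edgeR (background 0.357% of genes) or DESeq2 (1.41%). In edgeR, 1 had an unadjusted p under 0.05. That was Cers4, with a log2 fold change of 0.39 (95% interval 0.06 to 0.71, adjusted p = 0.53). The other 9 fold changes lay between -0.25 and 0.28, and the widest interval was that of Cers6, from -0.33 to 0.62. Ppara, the deleted gene, was not called in this comparison either (log2 -0.94, 95% interval -1.75 to -0.12, adjusted p = 0.55). The absence of calls thus does not show that the enzymes were equal between genotypes. In CDAHFD-fed KO against chow-fed KO, 1 of 10 was called at a background of 6.19%. It was Degs1, lower at 0.676 of chow-fed KO (log2 -0.56, SE 0.10, adjusted p = 0.010). The call was lost in 5 of the 20 settings, among them leaving out either chow-fed KO library. In chow-fed KO against CDAHFD-fed WT, 1 of 10 was called at a background of 6.12%, again Degs1, 1.504-fold higher in chow-fed KO (log2 0.59, SE 0.10, adjusted p = 0.0065). Cers5 was 0.61 higher on the log2 scale in CDAHFD-fed KO than in chow-fed KO without passing (adjusted p = 0.073), and Sptlc1 was 0.34 lower (log2 -0.34, adjusted p = 0.094).

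The interaction asks whether the diet difference in KO mice equals that in WT mice. It was called for 5 of the 10 enzymes, all negative, at a background of 23.1%, and it draws on the same chow-fed WT libraries. Cers6 gave -1.36 (SE 0.36, adjusted p = 0.015), with a diet difference of 1.34 in WT and -0.02 in KO. Cers5 gave -0.95 (SE 0.24, adjusted p = 0.013), from 1.56 in WT and 0.61 in KO. Sptlc2 gave -0.89 (SE 0.17, adjusted p = 0.0022), from 1.11 in WT and 0.22 in KO. For these genes the diet difference was smaller in KO, where the chow level was already raised. Degs1 gave -0.64 (SE 0.14, adjusted p = 0.0046), from 0.08 in WT and -0.56 in KO, and Sptlc1 -0.47 (SE 0.15, adjusted p = 0.035), from 0.13 and -0.34. The Sptlc1 interaction was lost in 13 of 19 settings, that of Cers5 without chow-fed KO replicate 1 (-0.77, adjusted p = 0.084) and that of Cers6 without chow-fed KO replicate 2 (-1.13, adjusted p = 0.073), and with only 2 chow-fed KO mice each of these rests on few animals.

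The order of levels per length was led in every group by Cers2 and then Degs1. In chow-fed WT the mean CPM per kb of exonic length was 119 for Cers2, 36.9 for Degs1, 20.6 for Smpd1, 16.2 for Sgms2, 9.12 for Sptlc1, 3.27 for Sptlc2, 1.47 for Sgms1, 0.966 for Cers6, 0.776 for Cers5 and 0.349 for Cers4. Neighbours whose libraries overlapped were Smpd1 and Sgms2, Sgms1 and Cers6, and Cers6 and Cers5. Sptlc1 stood above Sptlc2 in each group, by 9.12 to 3.27 in chow-fed WT but 9.97 to 7.06 in CDAHFD-fed WT. In CDAHFD-fed WT, Cers6 (2.45), Cers5 (2.29) and Sgms1 (2.22) overlapped one after another, and Cers4 was last in every group. In chow-fed KO, Sptlc1 (12.1) came before Sgms2 (11.1), with overlap. With the longest principal transcript as length, Sgms1 (3.85) kept its place after Sptlc2 (3.96) in chow-fed WT but overlapped it, and Cers5 came before Cers6.

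The wider pathway was covered by 55 other sphingolipid genes, of which 50 passed the filter. Of these 20 were higher and 9 lower in chow-fed KO (58%, background 39.0%), 22 and 10 in CDAHFD-fed WT (64%, background 51.1%) and 22 and 9 in CDAHFD-fed KO (62%, background 52.4%). Their median log2 fold change was 0.35, 0.27 and 0.25, against 0.00, -0.05 and -0.04 for all genes. In chow-fed KO it was 0.33 when Fa2h, with at most 1 count in any chow-fed WT library, was left out for being at the counting floor. None was called in CDAHFD-fed KO against CDAHFD-fed WT by edgeR (background 0.357%). The interaction was called negative for 16 and positive for 4 (40%, background 23.1%).

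**Figure D5:**
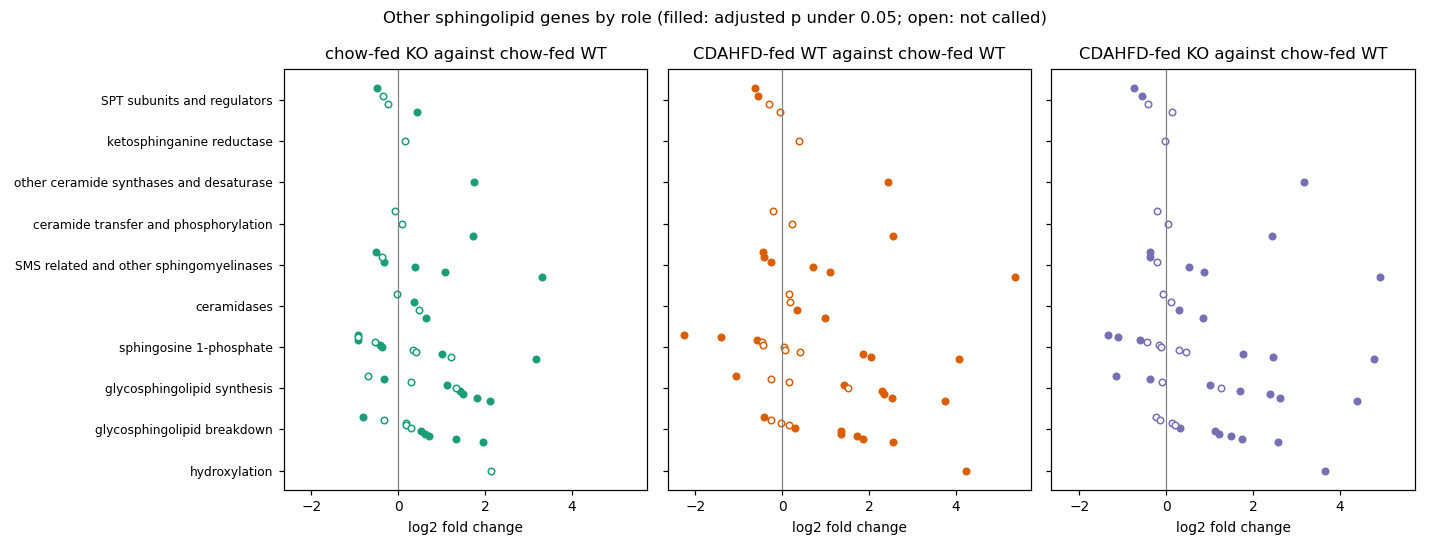
Log2 fold change against chow-fed WT (horizontal axis) of 50 other sphingolipid genes by role (vertical axis), 1 panel for each comparison. Filled points passed an adjusted p of 0.05. Smpd3 lies farthest right in every panel, at 3.31, 5.35 and 4.92.

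Of the 4 ceramidases tested, 2 were higher and none lower in each comparison against chow-fed WT. Asah1, acid ceramidase, had 43.4 to 46.2 CPM in chow-fed WT, 81.5 to 93.3 in CDAHFD-fed WT, 66.5 and 71.8 in chow-fed KO and 75.6 to 88.5 in CDAHFD-fed KO, with log2 fold changes of 0.99 in CDAHFD-fed WT, 0.63 in chow-fed KO and 0.85 in CDAHFD-fed KO. Of 10 glycosphingolipid breakdown genes, 5 were higher and 1 lower in chow-fed KO, 6 and 1 in CDAHFD-fed WT, and 6 and 0 in CDAHFD-fed KO, at backgrounds of 39.0%, 51.1% and 52.4% of genes called. Hexa, which encodes a lysosomal glycosidase that acts on gangliosides, rose by log2 1.33 in chow-fed KO, 1.86 in CDAHFD-fed WT and 1.75 in CDAHFD-fed KO. Summed macrophage markers were higher in these groups too, as given above, and their part was not tested.

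Of the 3 genes of ceramide transfer and phosphorylation, 1 was higher and none lower in each comparison against chow-fed WT. It was Cerk, ceramide kinase, at 5.27 to 6.72 CPM in chow-fed WT, 30.6 to 38.9 in CDAHFD-fed WT, 18.1 and 21.7 in chow-fed KO and 29.7 to 34.3 in CDAHFD-fed KO. Its log2 fold change was 1.72 in chow-fed KO, 2.55 in CDAHFD-fed WT and 2.44 in CDAHFD-fed KO. B4galt6, a lactosylceramide synthase, gave 1.48, 2.53 and 2.62 in that order. Ugt8a, which makes galactosylceramide, gave 1.80, 3.75 and 4.40 from 1 to 6 counts per chow-fed WT library. Of 9 glycosphingolipid synthesis genes, 5 were higher in each comparison, and 1, 1 and 2 were lower in chow-fed KO, CDAHFD-fed WT and CDAHFD-fed KO. The backgrounds for both classes were 39.0%, 51.1% and 52.4% of genes called in that order.

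Smpd3, the neutral sphingomyelinase that frees ceramide outside the lysosome, went from 0.367 to 1.86 CPM in chow-fed WT to 38.5 to 45.8 in CDAHFD-fed WT, 10.02 and 10.6 in chow-fed KO and 28.4 to 33.6 in CDAHFD-fed KO. Its log2 fold change was 3.31 in chow-fed KO, 5.35 in CDAHFD-fed WT and 4.92 in CDAHFD-fed KO, each called. It overlaps Prmt7 on the opposite strand, whose counts were 72.3% of its own. Of the 6 genes in its class, 3 were higher in each comparison and 2, 3 and 2 were lower in chow-fed KO, CDAHFD-fed WT and CDAHFD-fed KO. Of all genes tested, 39.0%, 51.1% and 52.4% were called in that order.

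In sphingosine 1-phosphate metabolism, Sphk1, a sphingosine kinase, rose from 2 to 7 counts per chow-fed WT library to 41 and 64 in chow-fed KO, 92 to 149 in CDAHFD-fed WT and 157 to 187 in CDAHFD-fed KO, with log2 fold changes of 3.17, 4.06 and 4.79. Sgpp2, which removes the phosphate of sphingosine 1-phosphate, rose by log2 1.87 in CDAHFD-fed WT and 2.46 in CDAHFD-fed KO. Its log2 fold change was 1.21 in chow-fed KO (adjusted p = 0.10), but Farsb on the opposite strand held 3214% of its counts. Of the 11 genes in this class, 2 were higher and 4 lower in chow-fed KO, and 3 were higher and 3 lower in each CDAHFD group. The background was 39.0% in chow-fed KO, 51.1% in CDAHFD-fed WT and 52.4% in CDAHFD-fed KO.

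At the entry of the pathway, Ormdl2, one of the ORMDL proteins that restrain serine palmitoyltransferase, fell by 0.49, 0.62 and 0.75 on the log2 scale in chow-fed KO, CDAHFD-fed WT and CDAHFD-fed KO. It shares 66.7% of its exonic length with Dnajc14 on the opposite strand, whose counts were 302% of its own, so its reads cannot be told apart there. Of the 4 tested subunits and regulators of serine palmitoyltransferase, 1 was higher and 1 lower in chow-fed KO, and 2 were lower in each CDAHFD group. The background was 39.0% in chow-fed KO, 51.1% in CDAHFD-fed WT and 52.4% in CDAHFD-fed KO. Degs2, the desaturase that also makes phytoceramide, had 2 to 8 counts per chow-fed WT library and rose by log2 1.74, 2.43 and 3.17, but Evl on the opposite strand held 3246% of its counts. Fa2h, the fatty acid hydroxylase of sphingolipids, had at most 1 count in a chow-fed WT library, 2 in each chow-fed KO library, 8 to 15 in CDAHFD-fed WT and 2 to 12 in CDAHFD-fed KO, and no fold is given. The ketosphinganine reductase was not called in any of the 3 comparisons.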

How the data were processed

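The deposited values were read counts per Ensembl gene, without normalization, which the authors made from poly-A selected, non-directional liver libraries. Per the labels, read quality was checked with FastQC 0.11.5 and reads were aligned to GRCm38 with STAR 2.7.3a; the counting program and annotation release are not given in the sources used here. Symbols, lengths and overlaps came from GENCODE M21, which held 94.1% of the identifiers and 99.7% of the counts. Groups and replicate numbers came from the labels, and p-values set group differences against the spread between these libraries.

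Counts were filtered with filterByExpr, scaled with TMM and fitted in edgeR 4.0.16 (R 4.3.3) by quasi-likelihood with 4 group means over all 12 libraries, so that the groups share 1 estimate of the spread. Intervals are 1.96 SE of the log2 fold change. Ratios within a library were tested by exact permutation over libraries, within genotype for diet and within diet for genotype, two-sided. Pairs of replicates differed by more than sampling noise (mean chi-square per gene of 19.8 to 121), so all 12 libraries were kept. On simulated counts, 97% to 98% of genes changed by log2 2 and 66% to 78% of those changed by log2 1 were recovered in the 3 comparisons with chow-fed WT. Only 200 well-counted genes were changed there, as many up as down, where 39.0% to 52.4% of genes were called in the data. These rates therefore do not cover changes as wide as those in the data. Total counts of 29906785 to 43551003 set the depth; the floor is 3 counts per library and covers counting error only. Alternatives were DESeq2 1.42.0, RLE, library size only, no filter, only the groups compared, a replicate block, a clock covariate, leaving out each library, and, chosen after seeing the data, only libraries with a clock score above 0. Where a setting left 1 chow-fed KO library, it was assumed to vary like the other groups. The 10 members, the other lists and the tests were chosen with earlier results of these data known. Beside the members, genes of the wider list were named by rule: within each role, the called genes with the largest log2 fold change against chow-fed WT, at most 2 per role and 12 in all, of which 1 is not reported here.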

Additional observations from a re-analysis of the deposited data

Results flagged for a closer look

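The level of Degs1 in chow-fed WT had 1 library apart from the others. Replicate 4, at 98.5 CPM, stood apart from the other 3 at 94.61 to 95.0009 CPM, with a gap of 0.899 of the range of the group. Fa2h in chow-fed WT was flagged in the same way (1.0), since 1 library had 1 count and the other 3 had none. Chance flags about 1 in 20 groups, and 30 groups were looked at.

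The difference between chow and CDAHFD was not the same in WT and KO, by the interaction term in edgeR, for 5 of the 10 enzymes: Sptlc1 (-0.47), Sptlc2 (-0.89), Degs1 (-0.64), Cers5 (-0.95) and Cers6 (-1.36), in log2 units. The same held for 6 named genes of the wider pathway: Cerk (-1.83), Smpd3 (-3.74), Asah1 (-0.77), Sphk1 (-2.44), B4galt6 (-1.39) and Hexa (-1.43). These 6 were named for large fold changes against chow-fed WT, whose libraries enter the interaction with the opposite sign, so their negative values are favoured by that choice. Among the 50 other sphingolipid genes the called values were negative for 16 and positive for 4, and among all genes tested for 2513 and 1498. The 4 chow-fed WT and 2 chow-fed KO libraries enter each of these values.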

How the results depend on the processing

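Of the 30 log2 fold changes of the 10 enzymes against chow-fed WT, each under 20 settings, 528 of 600 values kept their direction and their side of the threshold, 45 lost the call, 18 gained it and 9 turned. With library size only, 8 turned: Cers2 (0.14 in chow-fed KO, 0.20 in CDAHFD-fed WT and 0.26 in CDAHFD-fed KO), Sgms2 (0.21 in CDAHFD-fed WT and 0.010 in CDAHFD-fed KO) and Smpd1 (0.13, 0.24 and 0.24). The other was Cers4 in CDAHFD-fed WT, at -0.032 with only libraries of a clock score above 0. These turns come with the shift of all genes given above.

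Leaving out 1 library at a time, the number of enzymes called was 5 to 7 in chow-fed KO, 3 to 6 in CDAHFD-fed WT and 4 to 8 in CDAHFD-fed KO against chow-fed WT (23.7% to 41%, 42.6% to 52.3% and 45.7% to 51.9% of all genes), 0 to 1 in CDAHFD-fed KO against chow-fed KO (1.28% to 8.27%) and 3 to 5 for the interaction (15.5% to 26.7%). The 3 were without CDAHFD-fed WT replicate 1 (42.8% of all genes), and the 4 without CDAHFD-fed KO replicate 3 (46.7%). In CDAHFD-fed KO against chow-fed KO the count was 2 with DESeq2 (11.2% of all genes), and 0 with only the groups compared (3.52%). In chow-fed KO against CDAHFD-fed WT it was 2 with DESeq2 (13.3% of all genes). Leaving out 1 library, the log2 ratio of Cers5 to Cers2 differed between genotypes by 0.77 to 1.009, that of Cers6 to Cers2 by 0.80 to 1.09 between genotypes and by 0.73 to 1.03 between diets, and that of Smpd1 to both synthases by -0.20 to 0.047 between diets and -0.00528 to 0.24 between genotypes, turning without chow-fed WT replicate 1 (0.030) and chow-fed KO replicate 1 (0.047 and -0.00528). The cause was not tested.

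The labels give groups the same replicate numbers, but the deviations of same-numbered libraries correlated from -0.24 to 0.27, and not every library correlated best with its own number, so the numbers were not taken as pairs. With the replicate block, 4, 4 and 5 enzymes were called against chow-fed WT in chow-fed KO, CDAHFD-fed WT and CDAHFD-fed KO. The shares of all genes were 31.3%, 44.9% and 46.3%. The count was 0 in CDAHFD-fed KO against CDAHFD-fed WT (0.34% of all genes) and 4 for the interaction (18.1%). It was 1 in CDAHFD-fed KO against chow-fed KO (3.69%) and 1 in chow-fed KO against CDAHFD-fed WT (4.21%). Depth limits Fa2h, which had at most 1 count in a chow-fed WT library, under the floor of 3 counts.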
